A study of Mus musculus with 18 samples.

Results

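Enterochromaffin-like (ECL) cells of the mouse gastric corpus were examined as the 53 cells that the deposited annotation places in cluster 14 of dataset 2, out of 3993 kept cells in that dataset and 4484 kept cells in the whole series. The cells came from male wild-type C57BL/6J mice, 10 weeks of age per the study's methods, and no group carried a treatment or an allele. In dataset 2, corpus gastric units from 3 mice were pooled for each of the biological replicates K and T, and Hoechst-positive, TO-PRO-3-negative cells were sorted into 6 plates per pool and read by Quartz-Seq2, a plate-based single-cell RNA-seq method that counts unique molecular identifiers (UMIs). Dataset 1 held corpus and antrum units together, as pools tube1 and tube2 of 3 mice each in 3 plates, sorted for dye exclusion only. Because each pool mixes 3 animals, the spread between animals cannot be seen, and 2 pools are the only replicates.

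ECL cells lie in the acid-secreting glands of the corpus. Gastrin from the antrum acts on their gastrin receptor, Cckbr, and they release histamine, which drives acid secretion by the neighbouring parietal cells. Histamine is made from histidine by histidine decarboxylase, Hdc, and is packed into granules by the vesicular monoamine transporter VMAT2, encoded by Slc18a2, together with chromogranin A, Chga. D cells, which release somatostatin, restrain them, and X/A cells release ghrelin.

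Among the 1950 kept cells of pool K, 22 (1.13%, 95% Wilson interval 0.746 to 1.70) were ECL cells, and among the 2043 of pool T, 31 (1.52%, 1.07 to 2.15). The shares differed by -0.389 percentage points, within counting error (Fisher's exact test on cells, two-sided, p = 0.333). Plates ranged from 0.306% to 1.83% in pool K (median 1.10%) and from 0% to 2.89% in pool T (median 1.48%). A median ECL cell had 17920 UMIs (7359 to 37178) and 5756 detected genes, with 4.32% of UMIs mitochondrial, against 2.55% in D cells, 3.03% in X/A cells and 19.3% in parietal cells. The summed ECL library of pool K held 450967 UMIs and that of pool T 565883. All 53 cells were in G1 by the deposited phase call. Of the 615 wells under 2500 detected genes, which had been left out of the clustering, 0 passed the rule for Hdc and Chga used below for dataset 1, which allows a share of passing wells of up to 0.488%. These wells had a median of 945 UMIs, so shallow ECL cells among them could miss the minimum of 3 Hdc UMIs. All 12 plates used the same 384 well barcodes, so a cell was identified by plate and barcode.

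UMIs were summed per cluster and pool and scaled by the trimmed mean of M-values (TMM), and levels are given as counts per 1000000 UMIs (CPM). The TMM factors were 1.26 and 1.23 for the ECL sums and 0.562 to 1.03 for the epithelial sums, so scaling lowered ECL levels against the epithelium. The comparators were the 28 sums of epithelial clusters 0 to 13 and the sums of D cells (cluster 16, 31 cells) and X/A cells (cluster 17, 29 cells). A gene was called ECL-high where both ECL pools had at least 10 UMIs and the lower pool was at least 4-fold above every epithelial sum, with sums under 3 UMIs set to 3. Genes that met this minimum are called tested, for this rule and for the rule of genes above D and X/A cells. Counts of tested genes therefore leave out genes nearly absent from ECL cells. For the rules of lower genes the minimum applied to the comparator sums. The clusters were built from these same counts, so each difference from another cluster is a description of size, with no test.

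The study annotated the clusters from known marker genes, so high levels of such markers here describe the label and do not test it. Hdc (chr2:126435558-126461318, GRCm39, minus strand) was at 5590 CPM in pool K and 3628 in pool T, and its highest epithelial sum was 4.03 CPM. Slc18a2 (chr19:59249238-59284695) was at 3462 and 2867 CPM, against at most 5.23 in any epithelial sum. Chga (chr12:102520484-102531300) was at 49695 and 46298 CPM, against at most 80.9 in the epithelium, 12016 and 10806 in D cells, and 8470 and 8457 in X/A cells. Both ECL pools lay above all comparators for these genes. An Hdc UMI was found in 52 of 53 cells and a Chga UMI in all 53. After thinning each cell to 5000 UMIs, 96.2% of ECL cells retained an Hdc UMI, against 1 of 200 parietal cells. Markers of other cells that could share the sort were near 0. The mast cell markers, which matter because mast cells also hold histamine, were all at 0 except Kit at 0 and 7.18 CPM, the tuft, stromal, G cell (Gast) and enterochromaffin (Tph1, Tac1) markers were at 0, and the leukocyte, macrophage and endothelial lists summed to at most 1.77 CPM. The pit list summed to 1084 and 1354 CPM, between the lowest (718) and the highest (188036) epithelial sum of those genes. The chief list summed to 2315 and 3259 CPM (up to 341933 in the epithelium), the parietal list to 337 and 426 (up to 66415), the neck list to 219 and 296 (up to 25383) and the isthmus list to 3.53 and 5.74 (up to 1262). The neuron and glia list summed to 70.6 and 79.0 CPM, from Elavl4 and Uchl1, and to 270 and 328 in D cells. The part of these transcripts in the results was not tested.

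**Figure D1:**
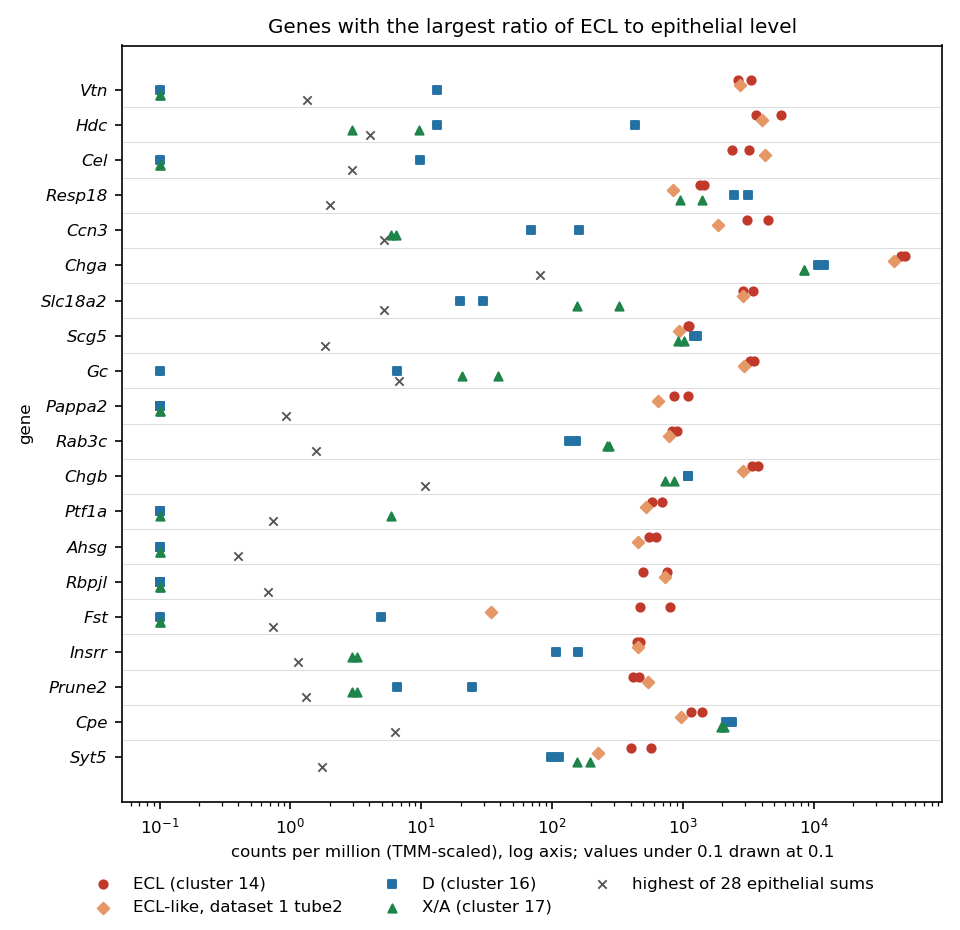
Levels of genes high in ECL cells, in TMM-scaled CPM on a log axis, with values under 0.1 drawn at 0.1. Points are ECL pools K and T, ECL-like cells of dataset 1 tube2, D and X/A pools, and crosses give the highest of 28 epithelial sums. Hdc stands at 5590 and 3628 CPM in the ECL pools against 4.03 in the highest epithelial sum.

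Across all genes, 473 of 7265 tested were ECL-high (6.51%), and the median ratio of the lower ECL pool to the highest epithelial sum over the tested genes was 0.515. The pools were close to each other: 448 of the 473 lay within 2-fold between K and T, with a median difference of 0.30 on the log2 scale. Just outside the limit were C1qtnf4 (3.97-fold) and Ramp1 (3.99-fold), and just inside were Klhdc8a (4.08-fold) and Zdhhc14 (4.09-fold). With plain CPM in place of TMM scaling, 563 genes were ECL-high and 25 were ECL-low by the rule given further on, against 473 and 82.

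In the histamine list, 4 of 8 tested genes were ECL-high, with a median ratio of 10.1, against 6.51% and 0.515 over all tested genes. Beside Hdc and Slc18a2 these were the second vesicular monoamine transporter Slc18a1 (38.8 and 56.0 CPM) and the plasma membrane monoamine transporter Slc29a4 (184 and 184 CPM). Maob, a monoamine oxidase, was at 101 and 101 CPM in ECL cells and at most 38.4 in the epithelium, a 2.61-fold difference that missed the limit. Hnmt, which methylates histamine, had no UMI in either ECL pool, where 3 UMIs would be 5.30 CPM in pool K and 4.31 in pool T, and reached 24.2 CPM in chief cells.

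The secretory granule list held 20 genes. Of these, 16 were tested and 14 were ECL-high, against 6.51% of all tested genes. Scg2, Scgn, Pcsk2 and Cryba2 had under 10 UMIs in ECL pools and were not tested. Chgb was at 3395 and 3783 CPM, Resp18 at 1360 and 1453, Cpe, a carboxypeptidase of prohormones, at 1158 and 1403, Scg5 at 1096 and 1114, and the prohormone convertase Pcsk1 at 775 and 656. Of these, Chgb was lower in D cells (1100 and 1094), but Resp18 (2441 and 3171) and Cpe (2362 and 2129) were higher there. Cpe was also higher in X/A cells (1941 and 2068). Of the tested granule genes, 0 were at least 4-fold above every D and X/A sum. With so few tested genes this is near the share of 0.812% over all tested genes. Some further granule genes were low in ECL cells and high in D or X/A cells. Scg2 and the calcium sensor Scgn had no UMI in ECL cells, whereas Scg2 stood at 388 and 603 CPM in D cells and 1020 and 1094 in X/A cells, and Scgn at 820 and 750 in D cells and 646 and 869 in X/A cells. The second convertase Pcsk2 (0 and 7.18 CPM in ECL cells) stood at 2131 and 2640 in D cells, and Pcsk1n, which encodes an inhibitor of Pcsk1, at 35.3 and 48.8 in ECL cells against 2922 and 3040 in D cells and 1056 and 1517 in X/A cells. Of the exocytosis list, 11 of 21 tested genes were ECL-high, against 6.51% of all tested genes. The number at least 4-fold above every D and X/A sum was 0, near the share of 0.812%. The SNARE Snap25 was at 417 and 472 CPM and its partner Stx1a at 157 and 162, the small GTPase Rab3c at 909 and 821, and the complexin Cplx2 at 376 and 355. Rab27b went the other way, at 26.5 and 28.7 CPM, at least 4-fold below every epithelial sum. It stood at 9.82 and 16.4 CPM in D cells and 76.7 and 119 in X/A cells. Of 20 tested channel genes 15 were ECL-high, against 6.51% of all tested genes. Among them were the potassium channel Kcnk16 (318 and 445 CPM) and the calcium channel subunits Cacna2d1 (122 and 129) and Cacna1h (93.6 and 64.6). Again 0 of the channel genes were at least 4-fold above every D and X/A sum, near the share of 0.812%. Kcnk16 stood at 525 and 548 CPM in X/A cells.

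**Figure D2:**
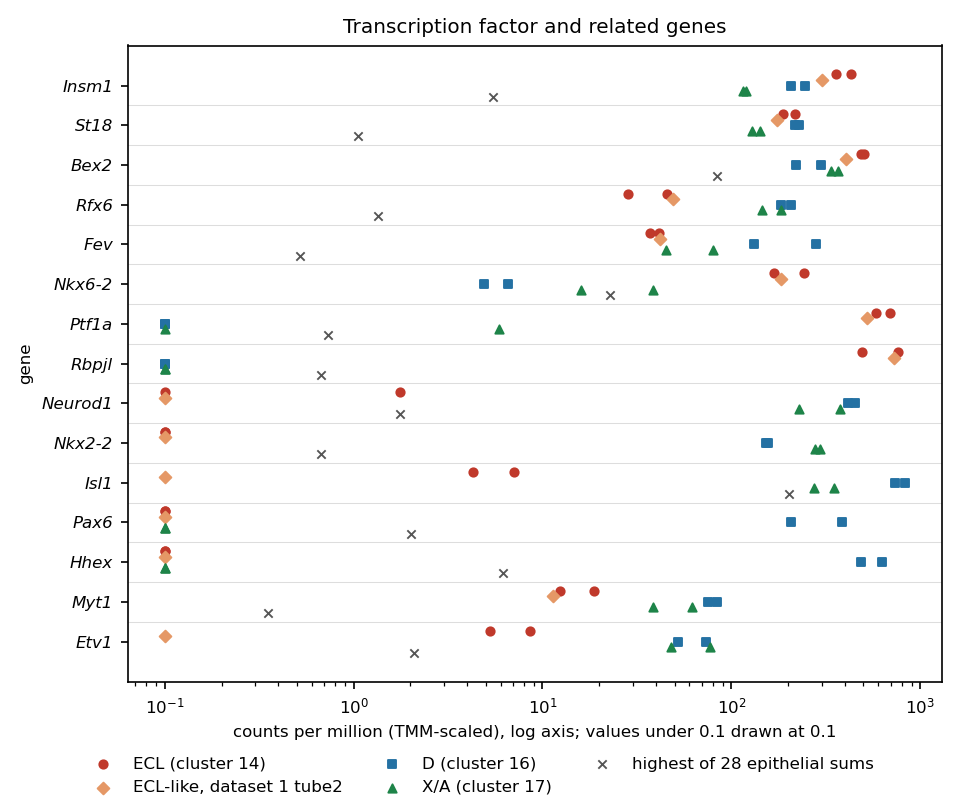
Levels of transcription factor and related genes, in TMM-scaled CPM on a log axis, with values under 0.1 drawn at 0.1, for ECL, D and X/A pools, ECL-like cells of dataset 1 and the highest of 28 epithelial sums. Ptf1a and Rbpjl stand at 493 to 760 CPM in the ECL pools, while Neurod1, Nkx2-2, Pax6 and Hhex lie at or below 1.77.

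The endocrine factor list held 36 counted genes, of which 13 had no UMI in either ECL pool. Of its 14 tested factors, 7 were ECL-high, against 6.51% of all tested genes. Among them, Insm1, a zinc finger factor of endocrine cells, was at 429 and 360 CPM, St18 at 187 and 218, Nkx6-2 at 168 and 241, and Bex2 at 487 and 503, with Fev (37.1 and 41.6) and Rfx6 (28.2 and 45.9) lower. Most were shared with other endocrine cells. In D cells Insm1 was at 206 and 246, St18 at 216 and 229, Fev at 280 and 131 and Rfx6 at 206 and 183. Bex2 was at 336 and 369 in X/A cells. Nkx6-2 was lower in both, at 4.91 and 6.55 in D cells and 38.3 and 16.0 in X/A cells. Several factors found in D or X/A cells had few or no UMIs in ECL cells, and 7 of the 17 tested against D cells were at least 4-fold below them. Over all genes tested against D cells the share was 2.19%. Neurod1 was at 1.77 and 0 CPM, against 452 and 416 in D cells and 378 and 228 in X/A cells. Nkx2-2 had none, against 152 and 157 in D cells and 295 and 276 in X/A cells. Isl1 was at 7.06 and 4.31 CPM, against 830 and 734 in D cells. Pax6 (383 and 206 in D cells) and Hhex (629 and 485 in D cells) had no UMI in ECL or X/A cells. Rest, a repressor of neuronal genes, had no UMI in ECL cells. With the floor of 3 UMIs it was at least 4-fold below every epithelial sum, one of which reached 43.4 CPM. This was shared, since Rest had no UMI in D cells and stood at 2.95 and 0 CPM in X/A cells.

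Genes at least 4-fold above every D and X/A sum numbered 59 of 7265 (0.812%), and 43 of them were also ECL-high. Scored without pool K it was 125 and without pool T 118. By ratio, the first of the 59 were Vtn, Cel, Pnliprp1, Gc, Pappa2, Ptf1a, Ahsg, Gstm6, Rbpjl and Fst. Of these, Ptf1a, Rbpjl, Cel and Pnliprp1 are known from pancreatic acinar cells, and Vtn, Gc and Ahsg are plasma proteins. Ptf1a, a basic helix-loop-helix factor, stood at 690 and 581 CPM in ECL cells and at 5.90 and 0 in X/A cells, and was at 0 in D cells. Rbpjl, its partner in the acinar PTF1 complex, stood at 493 and 760 CPM and had no UMI in D or X/A cells. Cel, carboxyl ester lipase, stood at 2384 and 3206 CPM, against 0 and 9.83 in D cells, no UMI in X/A cells and at most 2.94 in the epithelium. Pnliprp1, a pancreatic lipase relative, stood at 4047 and 5730 CPM, against 454 in chief cells of pool T, the highest epithelial sum (8.91-fold). The pancreatic set was partial. Of 9 tested genes of the acinar list, which was chosen after these values were seen, 6 were ECL-high, with Ctrb1 (72.4 and 58.9 CPM) and Cela2a (33.5 and 25.8) the others. Over all tested genes the ECL-high share was 6.51%. Prss1 and Nr5a2 had no UMI in ECL cells, and Cpa1 was at 1.77 and 0 CPM. Clps, the colipase, stood at 5654 and 7124 CPM in ECL cells, 1007 and 1834 in D cells and 608 and 433 in X/A cells, but at 232949 in chief cells of pool T, and its part in the ECL level from free RNA was not tested.

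The PTF1 complex binds an E-box, CANNTG, beside a TTCCCA box. To show the letters of 2 member promoters, the 250 bases before the RefSeq transcript start (GRCm38.p6 coordinates, a different build from the GRCm39 of the counts) are printed below in lower case with these motifs, on either strand, in capitals. Rbpjl lies on the plus strand at chr2:164402944-164403193 and Cel on the minus strand at chr2:28563404-28563653, both 5' to 3' in the direction of the gene.
Rbpjl: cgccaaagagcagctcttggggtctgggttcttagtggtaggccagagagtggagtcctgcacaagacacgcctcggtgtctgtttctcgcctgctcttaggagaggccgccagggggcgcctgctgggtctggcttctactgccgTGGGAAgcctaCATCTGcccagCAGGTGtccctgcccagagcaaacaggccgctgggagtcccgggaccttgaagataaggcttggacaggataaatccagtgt
Cel: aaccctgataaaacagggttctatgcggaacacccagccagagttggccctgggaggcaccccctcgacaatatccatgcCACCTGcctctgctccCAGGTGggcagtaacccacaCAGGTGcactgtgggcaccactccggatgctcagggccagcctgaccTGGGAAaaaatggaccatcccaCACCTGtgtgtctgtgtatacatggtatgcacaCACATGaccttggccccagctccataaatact
Both windows hold an E-box and a TGGGAA, the reverse complement of TTCCCA, in a stretch of at most 30 bases. The promoters of Ptf1a and Pnliprp1 held no such pair, and that of Ptf1a held no E-box. Such a pair occurred in 4.84% of 32851 promoters, an E-box in 72.3% and a TTCCCA or TGGGAA in 25.6%, counted over 300-base windows. Of the 43 ECL-high genes that also exceeded D and X/A cells, 38 had a promoter in the table, and 5 of these (Cel, Fgl2, Gc, Rbpjl, Slc39a5) held a pair, against 5.56% of gene symbols. A match of letters does not show that the site is bound.

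The plasma protein genes were also chosen as a list after the values were seen, and 8 of 10 tested were ECL-high. Over all tested genes the share was 6.51%. Of the tested genes of the list, 6 were at least 4-fold above every D and X/A sum, against 0.812% of all tested genes. But 3 of the 6 list genes tested against X/A cells were at least 4-fold below them, against 2.86% of all such genes. The list summed to 11789 and 11762 CPM in ECL cells, 766 and 839 in D cells and 6521 and 5949 in X/A cells. In the epithelium it reached 16788. Gc, the vitamin D binding protein, stood at 3528 and 3271 CPM, against at most 6.72 in the epithelium. Vtn, vitronectin, stood at 2657 and 3343 CPM, and Agt, the angiotensin precursor, at 1928 and 1634. Ahsg, fetuin-A, stood at 551 and 620 CPM and had no UMI in D or X/A cells. It was uneven among cells, with a UMI in 32 of 53 and up to 54.7 UMIs per 10000. Alb, albumin, had no UMI. Pappa2, a protease of insulin-like growth factor binding proteins, stood at 1098 and 851 CPM with no UMI in D or X/A cells, and Ccn3, a matricellular protein, stood at 4437 and 3083 CPM against at most 162 in D and X/A cells. Fst, follistatin, stood at 796 and 468 CPM, but 1 cell held 152 of its 777 UMIs and 34 cells had any.

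Among 9 tested receptors of the list fixed for secretagogues and inhibitors, 5 were ECL-high, against 6.51% of all tested genes. Cckbr stood at 346 and 373 CPM, against at most 39.8 in the epithelium, in parietal cells (8.69-fold), and 0 and 3.28 in D cells. The VIP receptor Vipr1 stood at 98.9 and 63.2 CPM, and the prostaglandin receptor Ptger2 at 68.9 and 73.2. Sstr2, a somatostatin receptor, stood at 98.9 and 83.3 CPM and reached 111 in parietal cells, so it was above D and X/A cells only. Adcyap1r1, the PACAP receptor, had no UMI in ECL cells, where 3 UMIs would be 5.30 and 4.31 CPM, and stood at 284 in parietal cells. Hrh2 (1.77 and 0) and Hrh3 (1.77 and 2.87) were near that limit.

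**Figure D3:**
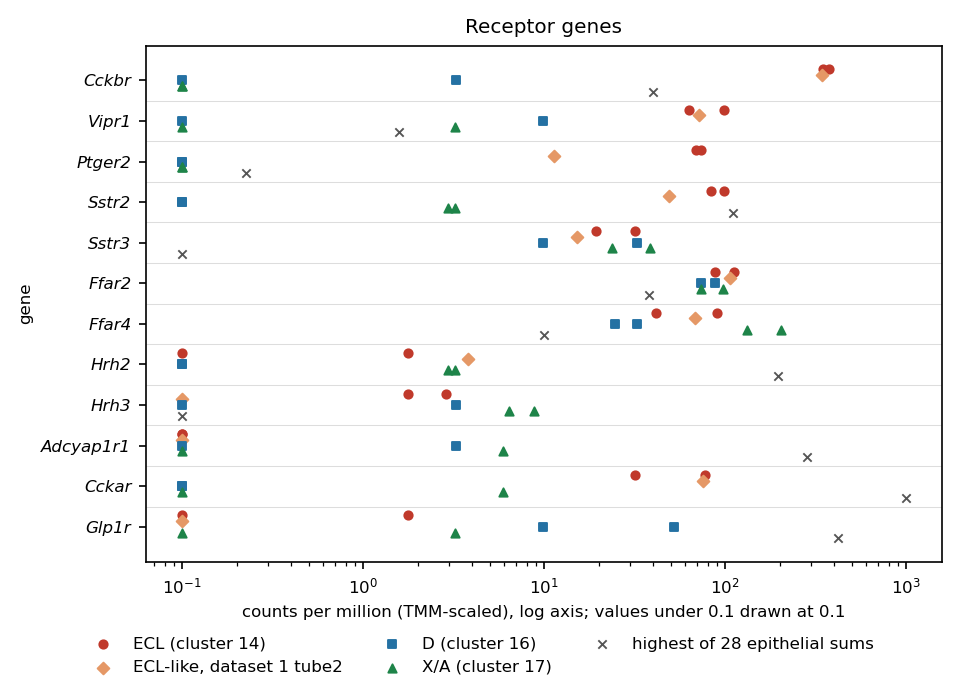
Levels of receptor genes for secretagogues and inhibitors, in TMM-scaled CPM on a log axis, with values under 0.1 drawn at 0.1, for the same groups as the plot of transcription factors. Cckbr stands at 346 and 373 CPM in the ECL pools against 39.8 in the highest epithelial sum, and Adcyap1r1 has no UMI in either ECL pool.

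Of the hormone list, 22 genes were in the table, 11 had no UMI in either ECL pool, and 2 of 4 tested were ECL-high, Ghrl and Reg1. Over all tested genes the share was 6.51%. Reg1, a secreted lectin-like protein, had 17 UMIs in K and 85 in T, with 37 of the 102 in 1 cell. Ghrl, which encodes ghrelin, stood at 13696 and 21040 CPM in ECL cells, 11923 and 1982 in D cells, and 168737 and 185644 in X/A cells, against at most 398 in the epithelium. The ECL and D pools did not overlap for Ghrl but their nearest values were 13696 and 11923. Per cell, Ghrl ran from 0 to 943 UMIs per 10000 (median 101), and 49 of 53 cells had a UMI. After thinning, 90.6% of ECL cells had a Ghrl UMI, against all 29 X/A cells, 77.4% of D cells, 16.7% of chief, 15.7% of mature pit, 15.5% of neck and 9.50% of parietal cells. Sst was at 17.7 and 15.8 CPM, below the highest epithelial sum of 42.8, against 127987 and 151638 in D cells.

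**Figure D4:**
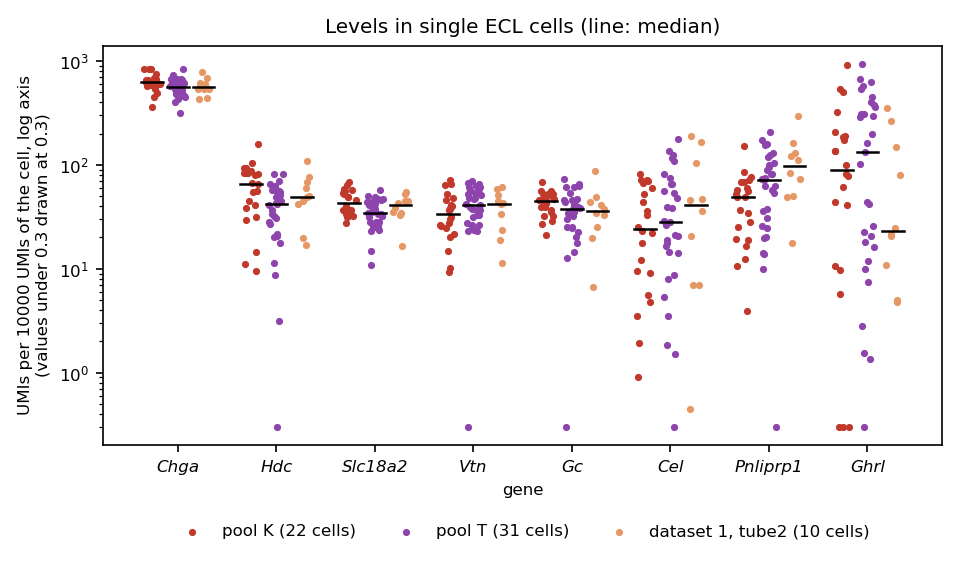
UMIs per 10000 in single ECL cells, on a log axis with values under 0.3 drawn at 0.3, for 22 cells of pool K, 31 of pool T and 10 ECL-like cells of dataset 1 tube2. Chga spans 315 to 843 in the 53 cells of cluster 14, while Ghrl spans 0 to 943.

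Single cells differed widely in Ghrl and Cel. Chga was more even, with a median of 595 UMIs per 10000 (315 to 843), and Slc18a2 had a median of 37.0 and reached 68.2. Hdc had a median of 65.8 per 10000 in pool K and 42.1 in pool T, and Cel ranged from 0 to 176. A single cell of pool T had no Hdc UMI among 15093. It had 476 Chga, 63 Slc18a2 and 7 Slc18a1 UMIs and 0 of Ghrl, Cel, Vtn, Gc and Ptf1a, and the highest Gkn1, Gkn2 and Tff1 levels of the cluster. It remained in all values above, and without it 473 genes were ECL-high. ECL cells were also divided at a Ghrl level of 101 per 10000, and genes of X/A cells were read on both sides. The divided sums were scaled among themselves, apart from the X/A sums, so their levels compare only between the sides. Acsl1, at 3132 and 2476 CPM in X/A cells, was at 78.2 CPM in Ghrl-rich and 69.3 in Ghrl-poor cells of pool K, and at 87.0 and 94.4 in pool T. Rbp4, a retinol binding protein at 2298 and 2040 CPM in X/A cells, was at 110 and 99.6 in pool K and 132 and 132 in pool T. The prohormone convertase Pcsk1, at 531 and 686 CPM in X/A cells, was higher on the Ghrl-rich side, at 1123 and 844 in pool K and 1155 and 340 in pool T. In the ECL-like cells of dataset 1 tube2, divided at 23.0 Ghrl UMIs per 10000, it was close on both sides (451 and 433). Mboat4, which encodes the acyltransferase of ghrelin, was at 502 and 472 CPM in pool K, 444 and 184 in pool T, and 470 and 353 in tube2. Scg2 and Nkx2-2, at 1020 and 1094 CPM and at 295 and 276 CPM in X/A cells, had no UMI on either side. The part of X/A RNA in the Ghrl level was not tested.

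Genes at least 4-fold below D cells numbered 72 of 3285 (2.19%), and those below X/A cells 134 of 4693 (2.86%), with 31 in common. Scored on 1 pool alone, 161 to 179 and 237 to 283 genes met these rules. The first by ratio were Sst, Pcsk2, Scg2, Scgn, Isl1, Igfbp7, Hhex, Irs4, Cd177 and Neurod1. A D cell of pool K carried 84 of the 91 Hdc UMIs of cluster 16, with 931 Sst and 0 Slc18a2 UMIs. Without it, 56 genes stood above D and X/A cells and 65 below D cells. Against the epithelium, 82 of 8204 tested genes (1.00%) were at least 4-fold below every sum in both ECL pools. Mecom, a zinc finger factor, was at 1.77 and 4.31 CPM and reached 409 in the epithelium. The sodium-proton exchangers Slc9a4 (5.30 and 5.74) and Slc9a2 (1.77 and 2.87) reached 442 and 226, and the potassium channel Kcnj15 (1.77 and 5.74) reached 1178. The exchangers and Kcnj15 were low in D and X/A cells as well, at 13.1 CPM or less. Mecom stood at 34.4 and 26.2 CPM in D cells and 67.8 and 67.3 in X/A cells. Scored on 1 pool alone, 133 to 140 genes met this rule. No gene of the 2 tested on the cell cycle list and none of the 15 tested immediate early genes was ECL-high. With so few tested genes this is near the share of 6.51% over all genes. The immediate early genes summed to 10610 and 14880 CPM in ECL cells, 19588 and 20321 in D cells and 26571 and 28436 in X/A cells.

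Dataset 1 gave cells that took no part in that clustering. ECL-like cells there were kept cells with at least 3 Hdc UMIs and at least 1 per 10000 of both Hdc and Chga. There were 10 of 287 in tube2 (3.48%, 95% Wilson interval 1.90 to 6.29) and 0 of 204 in tube1, which allows a share of up to 1.47%. Fisher's exact test on cells (two-sided, p = 0.00647) compares these 2 pools only and treats cells as independent. The mix of corpus and antrum in each pool is not given in the sources used here. All 10 lay in cluster 9 of the dataset 1 annotation, which held 24 cells. With a single pool, the values there have no test. Scaled separately, 380 of 4318 genes (8.80%) were at least 4-fold above every epithelial sum of dataset 1. Of the 473 ECL-high genes, 302 had at least 10 UMIs in these cells and 282 of them (93.4%) were at least 4-fold above there too. The other ECL-high genes did not reach 10 UMIs there, Fst with 9 UMIs among them. They are left out of the 93.4%, which covers only genes that these cells expressed. Hdc and Chga chose these cells, so they bear no weight here, but both are counted in the 380 and the 282. A pair of cells carried most of the pit transcripts, with 344 and 188 UMIs per 10000 of the pit list against a median of 4.76. Without these 2 cells it was 239 of 255 (93.7%). Vtn stood at 2754 CPM, Cel at 4214, Gc at 2917, Ptf1a at 523, Rbpjl at 725 and Cckbr at 345, and Ghrl at 8364. Fst was at 34.1.

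Against other endocrine-like cells of dataset 1, 49 of 4318 genes (1.13%) were at least 4-fold higher. Of the 59 genes above D and X/A cells, 55 had at least 10 UMIs in the ECL-like cells, and 24 (43.6%) were at least 4-fold higher. The minimum again left out genes low in these cells, such as Fst and Ptger2. Hdc and Chga, whose levels chose the cells, are among the 49, and Hdc is among the 24. The comparator held 1 of 6 tube2 cells with all 324 of its Pnliprp1, 81 Cel, 17 Vtn, 11 Cckbr and 9 Ptf1a UMIs, and with 460 Chga and 2 Hdc UMIs, so under the 3-UMI rule it was not counted as ECL-like. In the ECL-like cells, 1 cell held 39 of 43 Pcsk2 and 56 of 56 Cartpt UMIs, and the other values of Pcsk2 there were low.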

How the data were processed

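Quartz-Seq2 libraries were analysed from 18 plates of mouse stomach cells. Per the study's methods, the authors aligned reads to GRCm39 with STAR and the Gencode annotation, counted UMIs with Drop-seq tools, and removed cells under 2500 detected genes before clustering in Seurat; bcl2fastq 2.20.0.422 made the reads per the submitters' processing notes. The deposited tables hold whole UMI counts per gene and kept cell and, per the file headers, cluster, phase and the percent of mitochondrial UMIs per cell. Plate tables of dataset 1 were not used.

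UMI counts were summed per cluster and pool and scaled to CPM by TMM (edgeR 4.0.16, R 4.3.3), with a floor of 3 UMIs and a minimum of 10 UMIs. Python 3.11.15, scipy 1.17.1 and matplotlib 3.10.9 did the rest. Cell shares were compared by Fisher's exact test, and Wilson intervals and limits at 0 cover counting error only. Cells were thinned to 5000 UMIs for shares of cells with a UMI, using a seeded draw of 200 parietal and 200 neck cells. The size rule was tested on simulated data. The members and lists were chosen with earlier results of these data known, and the acinar and plasma protein lists after the values were seen. Genes were named by the largest ratio past the limit, 20 against the epithelium and 10 in the other comparisons, with at least 20 UMIs in both pools. No doublet caller was run. Some genes of the lists are counted but not reported here by name.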

Additional observations from a re-analysis of the deposited data

How the results depend on the processing

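No paired analysis was possible because the cluster comparisons come from no test. All clusters share pools K and T, and values are given per pool. The ECL-high count stayed within 1.5 times under plain CPM, 2-fold and 8-fold limits, a minimum of 3 UMIs, and without either pool (350 to 652), and 470 of 473 genes were shared without the cell lacking Hdc. The other counts moved with the limit. The 82 genes below the epithelium became 25 with plain CPM, 297 at 2-fold, 21 at 8-fold and 133 to 140 without a pool. The 59 genes above D and X/A cells became 220, 28 and 118 to 125. The 72 below D cells became 198, 42 and 161 to 179, and 122 with a minimum of 3 UMIs. The 134 below X/A cells became 331, 62 and 237 to 283. A rule over 1 pool asks less than one over 2. No result reversed. The planned edgeR tests of dataset 1 were not run because tube1 held 0 ECL-like cells. Sums of 22 and 31 cells limit low genes, since 3 UMIs are 5.30 and 4.31 CPM. Alternatives that leave out single cells were chosen after seeing the data.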

Other observations

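Ghrl-rich and Ghrl-poor ECL cells, divided by Ghrl level and scaled as in the report, differed in 2 genes that were picked after their values were seen. Ctsl, the lysosomal protease cathepsin L, stood at 2245 CPM in Ghrl-rich and 762 in Ghrl-poor cells of pool K, at 2019 and 406 in pool T, and at 571 and 171 in dataset 1 tube2, where the limit was 23.0 Ghrl UMIs per 10000. Id1, an inhibitor of basic helix-loop-helix factors, stood the other way, at 87.4 and 212 CPM in pool K, 87.0 and 184 in pool T, and 73.7 and 729 in tube2. The Ghrl-rich cells had more UMIs (medians of 21816 and 17816 in pool K and 18971 and 14567 in pool T), and the part of depth in either difference was not tested.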
